A study of Mus musculus with 6 samples.

Results

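The 8 genes described here encode the factors that govern the making of osteoclasts, the cells that resorb bone. They were chosen by name and comprised the ligand RANKL (Tnfsf11), its receptor RANK (Tnfrsf11a), the decoy osteoprotegerin (Tnfrsf11b), the ligands Csf1 and Il34, the transcription factor Nfatc1, and the osteoclast genes Acp5 and Oscar. All 8 were among the 17419 genes of the deposited table, and 6 passed the filter on low counts that left 13264 genes for testing. Tnfrsf11a and Oscar did not pass it and are given as counts.

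RNA had been sequenced from fibroblasts of the tendon enthesis, the place where tendon inserts into bone. The animals were SKG mice, which carry a Zap70 mutation that alters T cell selection and makes them prone to autoimmune arthritis. One group of 3 samples is labelled diseased and has NTS in its titles, and the other group of 3 is labelled un-diseased and has UN; the labels explain neither code and give no agent, age, sex or number of animals. Both groups share the SKG background, so no comparison with a mouse of another strain was possible. Nothing says that samples of a group came from separate mice or cultures, so the spread behind the p-values may be a technical one.

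RANKL on stromal cells, osteoblasts and T cells binds RANK on myeloid precursors and switches on NFATc1, while osteoprotegerin binds RANKL and blocks it. The precursors also need signalling through the receptor CSF1R, which is engaged by CSF1 or by IL-34. In inflamed joints and entheses, fibroblasts are a known source of RANKL. The question addressed here is how these transcripts differ between diseased and un-diseased entheseal fibroblasts.

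The upstream sequences of Tnfsf11 and Csf1 are shown because these ligands head the RANKL and CSF1 arms and differed in opposite directions. Each is 250 bases before the RefSeq start on GRCm38.p6, minus strand, at chr14:78308044-78308293 for Tnfsf11 and chr3:107760470-107760719 for Csf1. Capitals mark matches on either strand to the TATA box letters TATAA, to the AP-1 site written TGANTCA, to the GC box, which reads GGGCGG, or to the NF-kB consensus.
Tnfsf11: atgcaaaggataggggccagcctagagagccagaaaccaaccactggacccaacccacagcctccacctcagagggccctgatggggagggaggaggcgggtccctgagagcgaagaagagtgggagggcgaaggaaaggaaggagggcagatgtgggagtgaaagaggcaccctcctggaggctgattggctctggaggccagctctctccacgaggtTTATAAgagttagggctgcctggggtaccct
Csf1: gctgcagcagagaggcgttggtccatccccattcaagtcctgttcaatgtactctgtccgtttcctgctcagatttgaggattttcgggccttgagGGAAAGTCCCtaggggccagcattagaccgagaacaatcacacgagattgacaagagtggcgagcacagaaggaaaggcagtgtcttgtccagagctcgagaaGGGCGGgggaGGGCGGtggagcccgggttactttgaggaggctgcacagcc

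The Tnfsf11 window held TATAA on both strands in overlapping positions, 31 to 26 bases before the start, and none of the other motifs. The Csf1 window held 1 match to the NF-kB consensus, 154 to 145 bases before the start, and 2 GC boxes, and no TATAA. Among 32851 RefSeq promoter windows of this length, 22.8% held TATAA, 3.90% the NF-kB consensus, 32.7% GGGCGG and 6.75% TGANTCA. The windows had 60.4% GC and 4 CpG sites for Tnfsf11 and 56.4% GC and 10 CpG sites for Csf1, against a median of 52.4% and 6 over all windows. A match describes these letters and is not evidence of binding.

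Total counts per sample lay between 17233412 and 18290880 in the diseased group and between 16720611 and 17864668 in the un-diseased group. CPM here is a gene's count for each 1000000 counts of the TMM-scaled library. A sample with 0 counts of a gene allows up to 3 counts, or 0.147 to 0.188 CPM, for counting error only. All 9 fibroblast markers checked (Col1a1, Col1a2, Col3a1, Dcn, Lum, Pdgfra, Pdgfrb, Fbln1 and Vim) were present, with a summed level of 85277 to 119121 CPM in diseased and 64323 to 90723 CPM in un-diseased samples. RNA of myeloid cells was present too. The 18 macrophage markers, none of them at 0 throughout, summed to 194 to 509 CPM in diseased samples, against 51.9 to 259 CPM in un-diseased samples, and 16 of the 18 had a positive fold change. Lymphocyte markers other than Thy1, which fibroblasts also express, summed to 6.11 to 14.6 CPM in diseased samples and 5.26 to 15.4 CPM in un-diseased samples. The 10 osteoblast and osteocyte markers summed to 422 to 574 CPM in diseased samples, against 149 to 230 CPM in un-diseased samples, with no overlap. Most of this was Spp1, the gene of osteopontin, which macrophages also make, with 459 ± 78.2 CPM in diseased and 152 ± 42.9 CPM in un-diseased samples (SD, n = 3 each). The other 9 summed to 30.8 to 37.0 CPM in diseased and 41.0 to 51.2 CPM in un-diseased samples; by edgeR Spp1 was called higher, and Alpl and Phex lower. Chondrocyte markers, all 8 with a positive fold change and a median of 0.90 on the log2 scale, summed to 227 to 517 CPM in diseased and 116 to 237 CPM in un-diseased samples. Endothelial markers summed to 47.4 to 64.8 CPM in diseased and 57.6 to 83.2 CPM in un-diseased samples. This sum does not describe most of the list, since 4 of the 6 endothelial markers tested rose in diseased samples. The middle log2 fold change of the 6 was 0.73, and edgeR called 1 higher and 0 lower. The groups were apart for 3 endothelial markers that were higher in diseased samples and 1 that was lower. Neutrophil markers summed to 51.5 to 122 CPM in diseased and 7.99 to 196 CPM in un-diseased samples. In such bulk samples, fewer cells of a type and less RNA per cell cannot be told apart.

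In all diseased samples Csf1 was lower, and Il34 and Tnfrsf11a were higher, than in every un-diseased one, Tnfrsf11a at few counts. For the other members the groups overlapped. Their diseased means were lower for Nfatc1 and Tnfrsf11b and higher for Tnfsf11 and Acp5, and Oscar had too few counts to tell. Csf1 was 2.26-fold lower in diseased samples and Nfatc1 1.99-fold lower, while Il34 was 1.47-fold and Tnfsf11 1.67-fold higher. By edgeR's quasi-likelihood test 0 of the 6 tested members passed an adjusted p of 0.05, where 3.73% of all tested genes did; Csf1, Il34 and Nfatc1, 3 of the 6, were under 0.05 before adjustment, as were 27.8% of all tested genes. Csf1 and Nfatc1 were called lower by DESeq2, which called 10.8% of its 14041 tested genes, 6.22% lower and 4.54% higher. Samples with the same replicate number deviated together, so that the number was also fitted as a block, although no label says that the numbers pair samples. With the replicate block 4 of the 6 were called, Tnfsf11 and Il34 higher and Csf1 and Nfatc1 lower, where 23.9% of all tested genes were called, 10.5% higher and 13.3% lower. The groups did not overlap for 2 of the 6, Csf1 and Il34, against 31.9% of all tested genes. The difference had the same sign in all 3 pairs for 4 of the 6, against 60.7% of all tested genes.

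**Figure D1:**
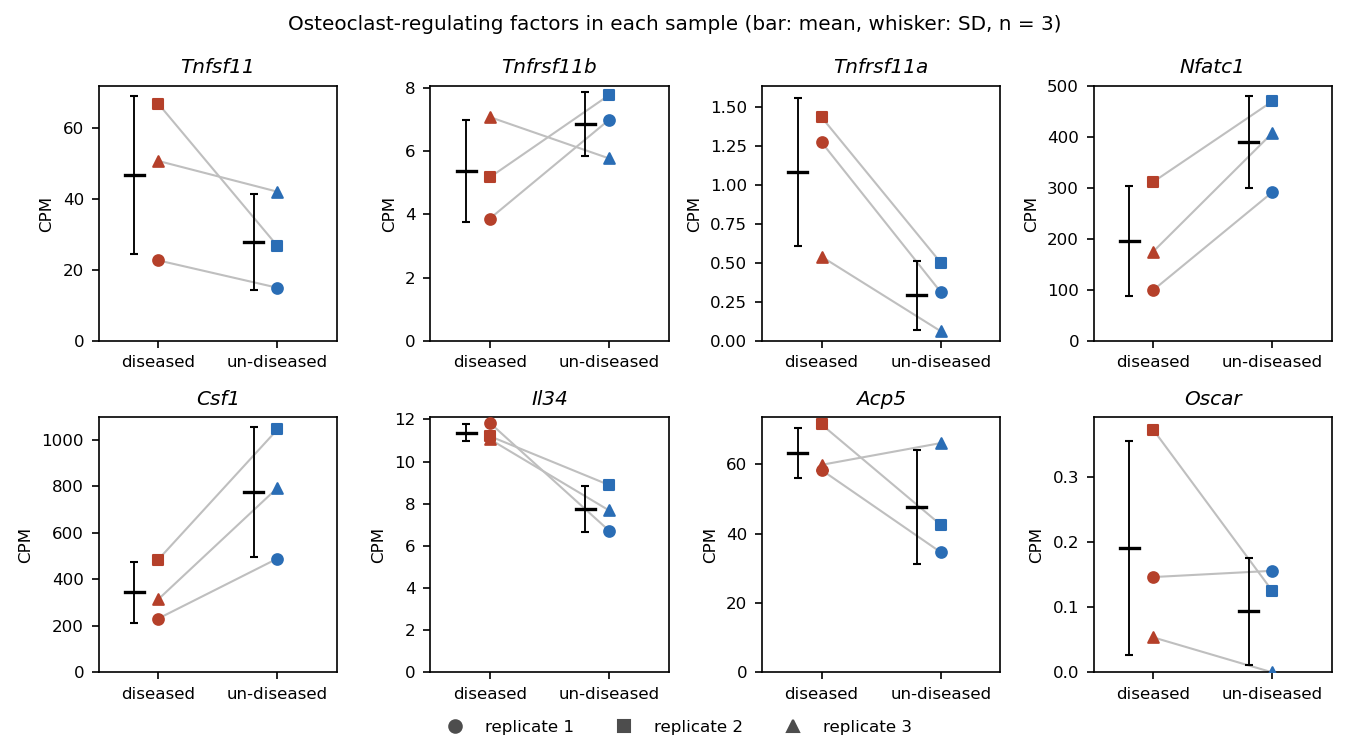
CPM of each of the 8 genes (vertical axes, each from 0) in the 3 diseased samples, left, and the 3 un-diseased samples, right; grey lines join samples with the same replicate number, and the bar and whisker give mean and SD. All 3 diseased samples lie below all un-diseased ones for Csf1 and above them for Il34 and Tnfrsf11a.

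Tnfsf11 (gene 21943, chromosome 14, 78277446 to 78308043 on GRCm38), the RANKL gene, had 22.7, 67.0 and 50.8 CPM in diseased replicates 1, 2 and 3, against 15.01, 26.8 and 42.1 CPM in un-diseased replicates 1, 2 and 3. The groups overlapped, since diseased replicate 1 lay below 2 of the un-diseased samples, yet each diseased sample exceeded the un-diseased one of its own number. The means were 46.9 ± 22.4 CPM in diseased and 27.98 ± 13.6 CPM in un-diseased samples (SD, n = 3 each). On the log2 scale this was a fold change of 0.74 (SE 0.46; adjusted p = 0.311 by edgeR), which did not pass the threshold. Fitted with the replicate block, Tnfsf11 rose by 0.73 (SE 0.18) on the log2 scale (adjusted p = 0.0257, edgeR). The differences within pairs 1, 2 and 3 were 0.60, 1.32 and 0.27. Leaving out pair 1 or pair 2 moved the blocked adjusted p by edgeR to 0.0509 or 0.0753, and the change without pair 2 was 0.43. The part of macrophage, osteoblast or chondrocyte RNA in the Tnfsf11 values was not tested.

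Tnfrsf11b (gene 18383, chromosome 15, 54250619 to 54278484), the gene of the soluble decoy osteoprotegerin, had 3.86, 5.17 and 7.07 CPM in diseased replicates 1, 2 and 3, against 6.98, 7.76 and 5.76 CPM in the un-diseased ones. The highest diseased sample lay above 2 of the un-diseased samples. By edgeR its log2 fold change was -0.35 (SE 0.25; adjusted p = 0.377) without the block and -0.38 (SE 0.23; adjusted p = 0.26) with it. Neither passed. Within pairs 1 and 2 the difference was -0.84 and -0.58, and within pair 3 it was 0.29.

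The balance of RANKL to osteoprotegerin transcripts was taken within each sample as the ratio of their CPM, which is comparable between samples but not a ratio of molecules. In diseased replicates 1, 2 and 3 Tnfsf11 over Tnfrsf11b was 5.76, 12.7 and 7.10, against 2.13, 3.42 and 7.20 in un-diseased replicates 1, 2 and 3. Un-diseased replicate 3 alone of its group reached the diseased range. The log2 ratio averaged 3.01 ± 0.59 over diseased samples and 1.91 ± 0.89 over un-diseased ones (SD, n = 3 each), a difference of 1.10 (SE 0.62). The two-sided exact permutation test gave p = 0.3, where 3 samples against 3 allow no less than 0.1. Within pairs 1, 2 and 3 the log2 ratio differed by 1.43, 1.90 and -0.02, so pair 3 showed no difference. Without un-diseased replicate 3 the difference was 1.58, and without un-diseased replicate 1 it was 0.70.

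**Figure D2:**
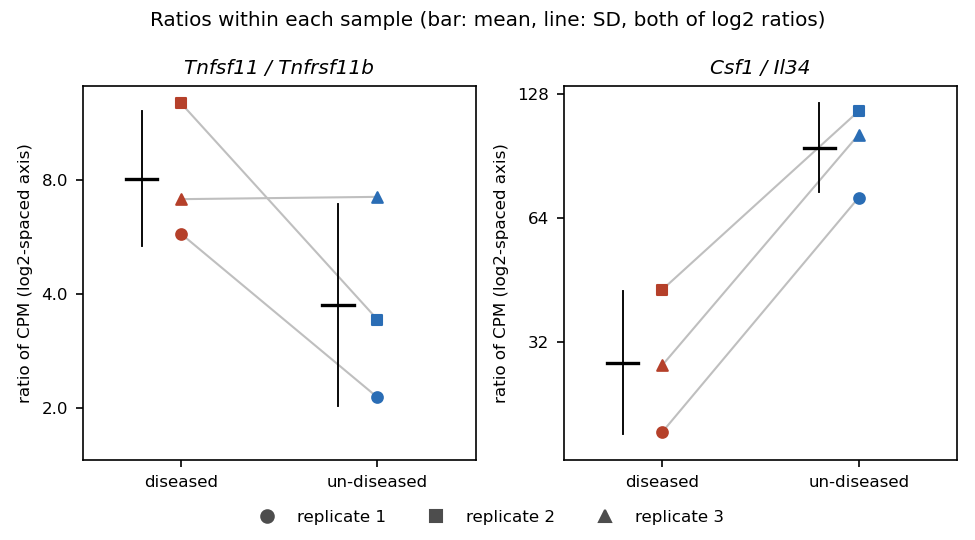
Ratio of CPM within each sample, on log2-spaced axes, for Tnfsf11 over Tnfrsf11b and for Csf1 over Il34, with diseased samples left of un-diseased ones; grey lines join equal replicate numbers, and bar and line give mean and SD of the log2 ratios. The Csf1 over Il34 ratios of the groups are apart, at 19.4 to 42.9 in diseased and 71.7 to 116 in un-diseased samples, while those of Tnfsf11 over Tnfrsf11b meet near 7.

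Csf1 (gene 12977, chromosome 3, 107741048 to 107760469), which encodes the main growth and survival factor of the macrophage and osteoclast lineage, had 231, 485 and 314 CPM in diseased replicates 1, 2 and 3. In the un-diseased replicates it was 489, 1044 and 793 CPM. Every diseased sample was lower, although diseased replicate 2 came within a few CPM of un-diseased replicate 1. The means were 343 ± 129 CPM in diseased and 775 ± 278 CPM in un-diseased samples (SD, n = 3 each). By edgeR the log2 fold change of -1.18 (SE 0.34; adjusted p = 0.0949) missed the threshold, and DESeq2 gave -1.19 (SE 0.32; adjusted p = 0.00553). Once the replicate number was fitted as a block, Csf1 fell by 1.17 (SE 0.12) on the log2 scale (adjusted p = 0.00167, edgeR). The differences within pairs 1, 2 and 3 were -1.08, -1.11 and -1.34, and the blocked call held without each pair in turn. Without the block, Csf1 passed when un-diseased replicate 1, the lowest of its group for Csf1, was left out (adjusted p = 0.0433 by edgeR). It did not pass when any other sample was left out (adjusted p of 0.0654 to 0.273 by edgeR). In the authors' deposited table, whose ratio runs un-diseased over diseased, Csf1 has a log2 value of 1.19 and a q-value of 0.00699. Of the 17419 genes in that table, 1361 have a q-value below 0.05. For the other members the authors' deposited table gives q-values above 0.05: 0.0608 for Nfatc1, 0.0655 for Il34, 0.122 for Tnfrsf11a, 0.318 for Tnfsf11, 0.377 for Acp5, 0.537 for Tnfrsf11b and 0.804 for Oscar.

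Il34 (gene 76527, chromosome 8, 110741829 to 110805949), the second ligand of CSF1R, differed in the opposite direction to Csf1. It had 11.8, 11.2 and 11.1 CPM in diseased replicates 1, 2 and 3, against 6.72, 8.89 and 7.68 CPM in un-diseased replicates 1, 2 and 3. The diseased samples were nearly equal to one another, and all lay above the un-diseased ones. The means were 11.4 ± 0.412 CPM in diseased and 7.77 ± 1.09 CPM in un-diseased samples (SD, n = 3 each). By edgeR the log2 fold change was 0.55 (SE 0.15; adjusted p = 0.0791) and by DESeq2 0.54 (SE 0.20; adjusted p = 0.0534), and neither called it. Under the replicate block Il34 rose by 0.56 (SE 0.15) on the log2 scale (adjusted p = 0.0287, edgeR), but by DESeq2 with the block the adjusted p was 0.106. Leaving out pair 1 or pair 3 moved the blocked adjusted p by edgeR to 0.13 or 0.115.

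In diseased replicates 1, 2 and 3 Csf1 over Il34 was 19.4, 42.9 and 28.1, against 71.7, 116 and 102 in un-diseased replicates 1, 2 and 3. The groups did not overlap. The log2 ratio averaged 4.84 ± 0.57 over diseased samples and 6.56 ± 0.36 over un-diseased ones (SD, n = 3 each), a difference of -1.73 (SE 0.39), or 3.31-fold lower in diseased samples. The two-sided exact permutation test gave p = 0.1, the smallest that 3 samples against 3 allow. Since Csf1 was lower and Il34 higher in every diseased sample, the ratio had to separate the groups. This p was therefore fixed by the values of the 2 members and adds nothing to them. Within pairs 1, 2 and 3 the differences were -1.89, -1.44 and -1.86. Per length, Csf1 still had the higher level in every sample: it had 72.8 ± 27.4 CPM per kilobase of merged exon over diseased and 164 ± 58.9 over un-diseased samples, where Il34 had 6.22 ± 0.226 over diseased and 4.25 ± 0.595 over un-diseased samples (SD, n = 3 each).

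**Figure D3:**
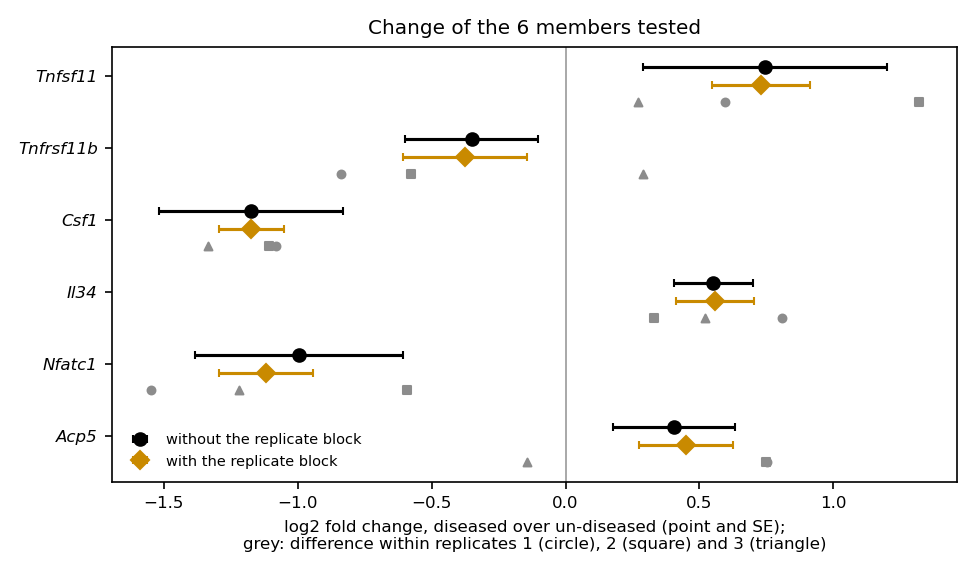
Log2 fold change of diseased over un-diseased samples for the 6 members tested, with SE, without the replicate block (black circles) and with it (diamonds); grey symbols are the differences within replicates 1, 2 and 3. The SE of Csf1 is 0.12 with the block and 0.34 without it, and that of Tnfsf11 is 0.18 with it and 0.46 without it, while the SE of Il34 is 0.15 in both fits.

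Nfatc1 (gene 18018, chromosome 18, 80606205 to 80713071), the calcium- and calcineurin-dependent factor that drives osteoclast differentiation downstream of RANK, is also expressed in other cells. It had 99.7, 312 and 175 CPM in diseased replicates 1, 2 and 3, against 292, 470.3 and 408 CPM in un-diseased replicates 1, 2 and 3. Only diseased replicate 2 reached the un-diseased range. The means were 196 ± 108 CPM in diseased and 390.2 ± 90.5 CPM in un-diseased samples (SD, n = 3 each). By edgeR the log2 fold change was -0.996 (SE 0.39) and was not called (adjusted p = 0.152). DESeq2 gave -1.01 (SE 0.36) and called it (adjusted p = 0.0486). Blocked by replicate, Nfatc1 fell by 1.12 (SE 0.18) on the log2 scale (adjusted p = 0.0052, edgeR). Within pairs 1, 2 and 3 it differed by -1.55, -0.59 and -1.22, and without pair 3 the blocked adjusted p by edgeR was 0.0524.

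Acp5 (gene 11433, chromosome 9, 22126727 to 22135746), which encodes tartrate-resistant acid phosphatase, an osteoclast enzyme that macrophages also make, had 58.3, 71.4 and 59.8 CPM in diseased replicates 1, 2 and 3. It had 34.6, 42.5 and 66.1 CPM in the un-diseased replicates, and un-diseased replicate 3 lay inside the diseased range. By edgeR the log2 fold change was 0.40 (SE 0.23; adjusted p = 0.28) without the block and 0.45 (SE 0.17; adjusted p = 0.0945) with it. Neither was called. Within pairs 1 and 2 the difference was 0.75 in each, and within pair 3 it was -0.14. Without pair 3 the blocked change was 0.75, and it passed by edgeR (adjusted p = 0.0252). It also passed with all pairs under upper-quartile factors with the block (adjusted p = 0.0482).

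Tnfrsf11a (gene 21934, chromosome 1, 105780673 to 105849444), which encodes RANK, the receptor on osteoclast precursors, had counts of 26, 23 and 10 in diseased replicates 1, 2 and 3, against 6, 8 and 1 in un-diseased replicates 1, 2 and 3. This came to 1.08 ± 0.476 CPM in diseased and 0.292 ± 0.22 CPM in un-diseased samples (SD, n = 3 each), with all diseased samples higher. In the fit with no filter beyond 1 count the log2 fold change was 1.86 (SE 0.63; adjusted p = 0.13 by edgeR), and with the replicate block it was 1.92 (SE 0.48; adjusted p = 0.0213). DESeq2 did not call it without the block (adjusted p = 0.099) or with it (adjusted p = 0.0768). With so few counts the size of this difference is uncertain.

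Oscar (gene 232790, chromosome 7, 3609813 to 3616157), a collagen-binding costimulatory receptor of osteoclasts, had counts of 3, 6 and 1 in diseased replicates 1, 2 and 3, against 3, 2 and 0 in the un-diseased ones. At this depth no difference was detectable. Fcer1g, the adaptor through which OSCAR signals, was also present and is given below with the costimulatory genes.

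These receptor transcripts stood beside other myeloid ones. Csf1r, the receptor of Csf1 and Il34, had 21.96, 35.3 and 10.5 CPM in diseased replicates 1, 2 and 3, against 8.34, 18.6 and 2.11 CPM in un-diseased replicates 1, 2 and 3. Tyrobp, the adaptor that carries costimulatory signals in myeloid cells, had 5.18, 7.28 and 2.59 CPM in diseased replicates 1, 2 and 3, against 0.99, 3.38 and 0.31 CPM in the un-diseased ones. Within both groups, and like Tnfrsf11a in CPM, both were highest in replicate 2 and lowest in replicate 3. The part of macrophage RNA in the values of Tnfrsf11a and Acp5 was not tested. Siglec15, Dcstamp, Ocstamp and Calcr, genes of mature or fusing osteoclasts named after their values were seen, averaged 0.0623, 0.217, 0.18 and 0.278 CPM in diseased samples, against 0.0209, 0.0835, 0.0554 and 0.32 CPM in un-diseased samples, and did not pass the filter.

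Per kilobase of merged exon, the order of the members' mean levels in diseased samples was Csf1, Acp5, Nfatc1, Tnfsf11, Il34, Tnfrsf11b, Tnfrsf11a and Oscar. Acp5 averaged 36.9 ± 4.2, Nfatc1 26.3 ± 14.5 and Tnfsf11 20.96 ± 10.01 CPM per kilobase in diseased samples, and Nfatc1 overlapped in range with both of the others, while Acp5 and Tnfsf11 did not overlap. In un-diseased samples Nfatc1 stood above Acp5 in every sample, at 52.5 ± 12.2 CPM per kilobase for Nfatc1 and 27.9 ± 9.57 for Acp5, and Tnfsf11 followed at 12.5 ± 6.08 (SD, n = 3 each). Tnfrsf11b, at 1.90 ± 0.572 in diseased and 2.43 ± 0.358 in un-diseased samples, lay below Tnfsf11 and Il34 in all 6 samples. Tnfrsf11a and Oscar were the lowest members in both groups and overlapped in range.

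**Figure D4:**
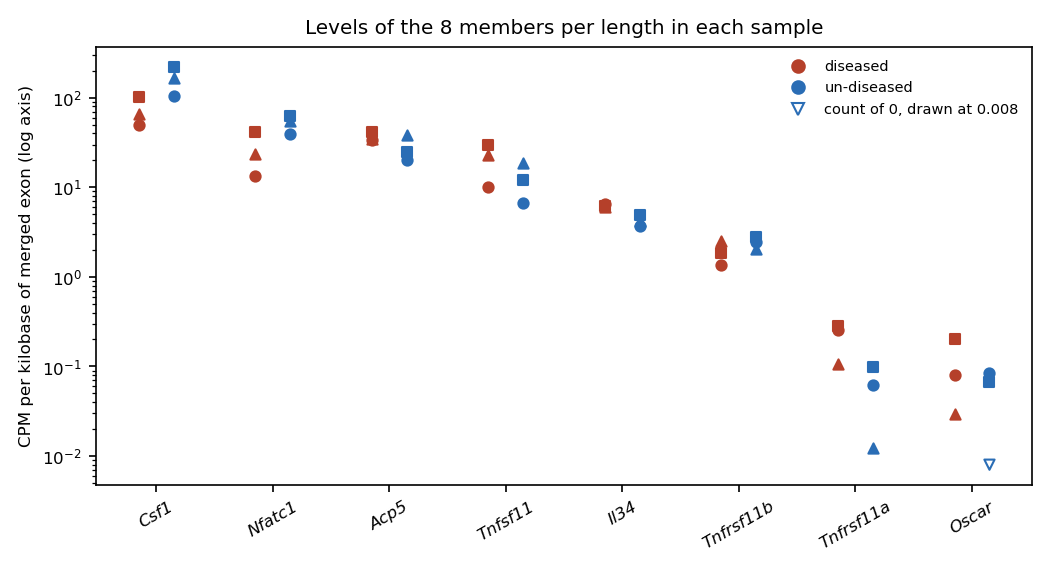
Level of each member per kilobase of merged exon in each sample, on a log axis, with diseased samples left of un-diseased ones and circles, squares and triangles for replicates 1, 2 and 3; an open triangle marks a count of 0. Csf1 is the highest member in both groups, and Tnfrsf11a and Oscar stay under 0.3 CPM per kilobase.

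The genes with the most alike profiles were sought over 12182 genes by the root-mean-square difference of centred log2 CPM over the 6 samples, as a description. For Tnfsf11 they were Cacna1d (0.09), Inava (0.14) and Bdnf (0.20). For Csf1 they were Dcbld2 (0.07), Med13 (0.07) and Zfp711 (0.10), for Il34 Plcl2 (0.05), Islr (0.06) and St6galnac4 (0.07), and for Tnfrsf11b Cmpk2, Nrxn3 and Casp4 (0.10, 0.10 and 0.12). The search was made for these 4 members, and none of the 8 members was among the 3 most alike genes of any of them.

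Beyond the members, 158 genes of 7 lists on osteoclast control were looked at, all of them in the table and 142 tested. By edgeR without the block 0 were called higher and 1 lower, where 1.61% and 2.13% of all tested genes were; 55 of the 142 were under 0.05 before adjustment, where 27.8% of all tested genes were. By DESeq2 10 of 147 were called higher and 14 lower, where 4.54% and 6.22% of all its tested genes were. The called gene was Lepr, the leptin receptor, a marker of the marrow stromal cells that make Csf1. It had 6.65, 9.65 and 11.4 CPM in diseased replicates 1, 2 and 3, against 19.9, 27.0 and 17.3 CPM in un-diseased replicates 1, 2 and 3, with a log2 fold change of -1.21 (adjusted p = 0.042 by edgeR). Its call was lost when any 1 of diseased replicates 1, 2 and 3 or un-diseased replicates 2 and 3 was left out (adjusted p of 0.0676 to 0.135 by edgeR), and it held with the block without each pair. In the fit with the replicate block 26 of the 142 were called higher and 36 lower, or 43.7%, where 23.9% of all tested genes were. The median log2 fold change of the 142 was -0.08, against 0.02 for all tested genes. The list counts below stand beside 27.8% of all tested genes with an unadjusted p under 0.05. With the block 10.5% of all tested genes were called higher and 13.3% lower. By list, the block called 44.8% of ligands and decoys, 53.8% of receptors and 58.3% of costimulatory genes. It called 48.1% of RANK signalling genes, 58.3% of brakes, 16.7% of fusion and resorption genes and 38.7% of stromal regulators. The blocked examples below, mostly the called genes with the smallest blocked adjusted p in each direction, were chosen after their values were seen, and each change given for them is a blocked log2 fold change.

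Among 29 tested genes listed as ligands and decoys, 0 were called without the block (edgeR; 6 with an unadjusted p under 0.05), and with it 6 rose and 7 fell. Il1b, an inflammatory cytokine that promotes resorption, rose by 1.96 (SE 0.26) and Sema4d, a semaphorin made by osteoclasts, by 1.01 (SE 0.17). Il6, which raises RANKL in stromal cells, fell by 1.71 (SE 0.16), and Csf2, the gene of GM-CSF, fell by 1.73 (SE 0.16). Sfrp1 (1.07), Wnt16 (0.77), Cthrc1 (0.58) and Tgfb3 (0.31) were the other 4 that rose, and Ccl2, Il11, Csf3, Il33 and Vegfa the other 5 that fell. Myeloid cells are the main makers of IL-1 beta. Postn, a matrix protein with the highest mean CPM of this list, had 2829 ± 645 CPM in diseased and 3810 ± 830 CPM in un-diseased samples and was not called.

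Of 13 tested receptors, 0 were called without the block (edgeR; 4 with an unadjusted p under 0.05), and with it 5 rose and 2 fell. Csf1r rose by 1.42 (SE 0.22) and Cxcr4, the receptor of Cxcl12, by 1.34 (SE 0.25), while Tnfrsf1b, a TNF receptor, fell by 0.88 (SE 0.14) and Il1r1, the IL-1 receptor, by 0.68 (SE 0.13). Sdc1, a heparan sulfate proteoglycan reported to bind IL-34, had 174, 222 and 223 CPM in diseased replicates 1, 2 and 3, against 108, 131 and 178 CPM in un-diseased replicates 1, 2 and 3. It rose by 0.59 (SE 0.12) with the block and was not called without it (adjusted p = 0.13 by edgeR). Ptprz1, another binding partner of IL-34, averaged 0.216 CPM in diseased and 0.174 CPM in un-diseased samples and was not tested.

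The costimulatory receptors and adaptors, which myeloid cells use to raise calcium for NFATc1, had the highest median of the 7 lists, 1.37 over 12 tested genes, against 0.02 for all tested genes. Without the block 0 were called (edgeR; 5 with an unadjusted p under 0.05), and with it 7 rose and 0 fell. Pirb, which shares sequence with the Pira genes so that its counts are uncertain, rose by 1.84 (SE 0.27), and Plcg2, a phospholipase, by 1.72 (SE 0.26). Fcer1g, the partner of OSCAR, rose by 2.18 (SE 0.37), Tyrobp by 1.90 (SE 0.34) and its partner Trem2 by 1.44 (SE 0.29). Macrophage markers had a median of 1.21 in the same comparison, and with the block 16 of 18 of them rose; their part in the values of this list was not tested. Sirpa had the highest CPM of this list, 149 ± 16 in diseased and 124 ± 4.98 in un-diseased samples.

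Of 27 tested genes of RANK signalling and osteoclast transcription, 0 were called without the block (edgeR; 12 with an unadjusted p under 0.05), and with it 3 rose and 10 fell, with a median of -0.25 without the block. Fosl1, an AP-1 subunit, fell by 1.02 (SE 0.11) and Nfkb1, the NF-kB p50 precursor, by 1.51 (SE 0.18). The other NF-kB subunits of the list that fell were Rela by 0.82 (SE 0.12), Nfkb2 by 0.65 (SE 0.12) and Relb by 0.67 (SE 0.15). The 3 that rose were Spi1, the myeloid factor PU.1, by 1.77 (SE 0.35), Camk4, a calcium-dependent kinase, by 0.93 (SE 0.19), and Fos by 0.62 (SE 0.13). Fos had the highest level of this list, 1150 ± 189 CPM in diseased and 754 ± 162 CPM in un-diseased samples.

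Of 12 tested brakes on osteoclast transcription, 0 were called without the block (edgeR; 5 with an unadjusted p under 0.05), and with it 2 rose and 5 fell. Id1, Id2 and Id3, which hold back lineage transcription factors, fell by 0.69 (SE 0.17), 0.62 (SE 0.13) and 0.63 (SE 0.11), and Rbpj, which restrains osteoclast formation under TNF, fell by 0.56 (SE 0.10). The myeloid genes Lilrb4a and Dok3 rose by 1.53 (SE 0.21) and 0.99 (SE 0.30). Rcan1, a calcineurin inhibitor that NFAT itself induces, had 298 ± 161 CPM in diseased and 643 ± 303 CPM in un-diseased samples and fell by 1.12 (SE 0.26) with the block.

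Of 18 tested genes of fusion and resorption, 0 were called without the block (edgeR; 8 with an unadjusted p under 0.05), and with it Mmp9 rose by 1.25 (SE 0.18) while Snx10 and Cd44 fell by 0.72 (SE 0.10) and 0.66 (SE 0.17). That is 16.7% called with the block, against 23.9% of all tested genes. Ctsk, the collagen-degrading protease of osteoclasts that fibroblasts also make, had 705, 989 and 663 CPM in diseased replicates 1, 2 and 3, against 740.2, 978 and 1317 CPM in un-diseased replicates 1, 2 and 3. The groups overlapped, and the log2 fold change was -0.37 (adjusted p = 0.361, edgeR). Mmp14, the membrane-bound collagenase, was the most abundant of this list, with 1079 ± 254 CPM in diseased and 1085 ± 185 CPM in un-diseased samples.

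Of 31 tested stromal regulators of RANKL and osteoprotegerin, 1 fell without the block, Lepr (15 with an unadjusted p under 0.05), and with it 2 rose and 10 fell. Epas1, a hypoxia-inducible factor, rose by 0.90 (SE 0.13) and Runx2, an osteoblast transcription factor, by 0.63 (SE 0.13). Osmr, the oncostatin M receptor, fell by 0.95 (SE 0.12), and Il17ra, a subunit of the IL-17 receptor, by 0.88 (SE 0.12). Ptgs2 and Ptges, enzymes of prostaglandin E2 synthesis, a route that raises RANKL in stromal cells, fell by 1.09 (SE 0.18) and 1.06 (SE 0.14). Vdr and Pth1r, receptors through which vitamin D and parathyroid hormone raise RANKL, had log2 fold changes of 0.15 and 0.41 and were not called in either fit.

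**Figure D5:**
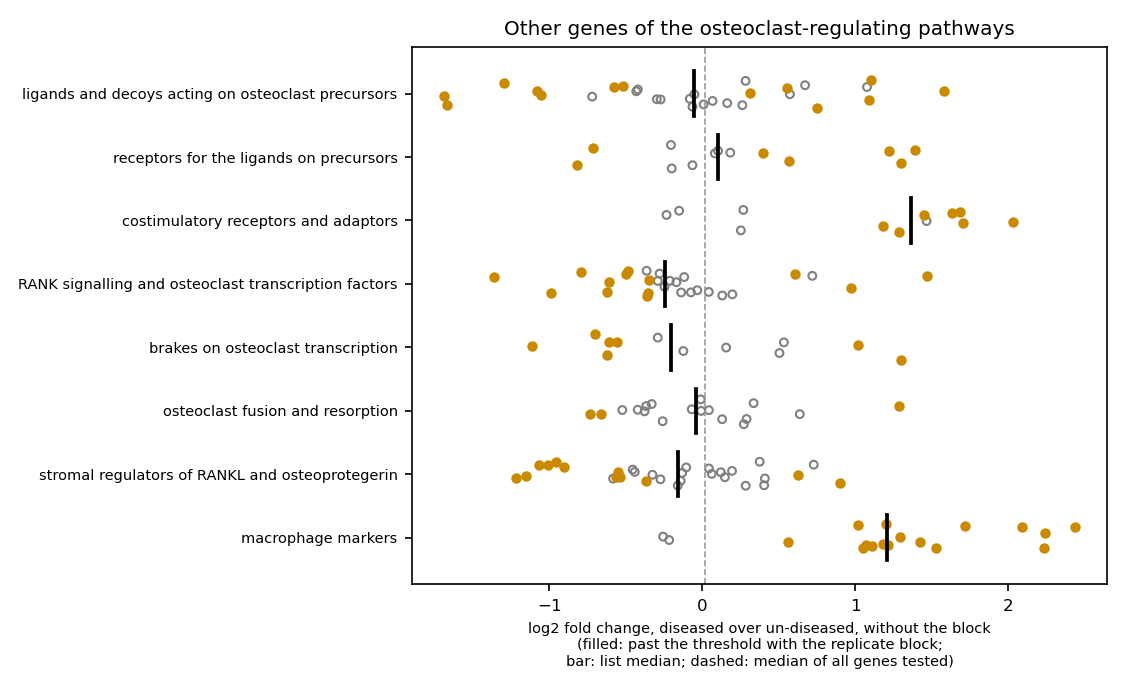
Log2 fold change without the block for the tested genes of the 7 pathway lists and of the macrophage markers; filled points passed the threshold with the replicate block, bars are list medians and the dashed line is the median of all genes tested. The costimulatory genes and the macrophage markers lie mostly above 1, with medians of 1.37 and 1.21.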

How the data were processed

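The deposited table held estimated counts per gene, made by the authors, with a log2 ratio, a p-value and a q-value of un-diseased over diseased, per the file headers. The build GRCm38 and the tools DESeq2 1.4.5, RSEM 1.3.1 and HISAT2 2.0.4 are named, without role or order, per the submitters' processing notes. Values were rounded to whole numbers before use, since 9.61% of the estimated counts had decimals. Gene numbers were matched to RefSeq of GRCm38.p6 (17372 of 17419); exon lengths are merged exons of the GENCODE basic set on GRCm38.

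Genes were kept with filterByExpr (least count 10), scaled with TMM and tested with edgeR 4.0.16 (R 4.3.3) by the quasi-likelihood test, all 6 samples, Benjamini-Hochberg adjustment over 13264 genes, threshold 0.05. Fold changes are diseased over un-diseased. The SE is the change divided by the square root of its F statistic. Ratios used a pseudocount of 0.1 CPM. Alternatives were RLE and upper-quartile factors, no filter, DESeq2 1.42.0, the replicate block and leaving out each sample; blocked fits with other settings or without a pair were added after seeing the data. Deviations from group means correlated at 0.487, 0.578 and 0.276 for samples numbered 1, 2 and 3, all over 0.1. The numbers in the titles were therefore taken to pair samples, although no label says so. Diseased replicate 3 with un-diseased replicate 1 also exceeded 0.1, at 0.137, while the other unequal numbers gave -0.531 to -0.0681. Samples of a group differed beyond sampling noise (chi-square per gene 24.2 to 58.5). The edgeR steps were tried on simulated counts drawn without a replicate effect, so the trial does not show how the block behaves with pairs. DESeq2 and the ratio tests were not part of it.

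The members, lists and tests were chosen with earlier results of these data known. Named genes were the 8 members, up to 4 called genes per list or else its most abundant gene, Csf1r, Tyrobp, Sdc1 and Ctsk, the 3 most alike genes of 4 members, and other genes chosen after their values were seen, namely the blocked examples of each list and Siglec15, Dcstamp, Ocstamp, Calcr, Ptprz1, Vdr, Pth1r, Spp1, Alpl and Phex.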

Additional observations from a re-analysis of the deposited data

How the results depend on the processing

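None of the 6 tested members changed the sign of its log2 fold change under the 18 alternative fits, and both ratios kept their sign under all alternatives tried, Tnfsf11 over Tnfrsf11b ranging from 0.70 to 1.58 and Csf1 over Il34 from -2.02 to -1.45 when 1 sample was left out. What passed the threshold depended on the fit. Over all genes, against 213 higher and 282 lower, upper-quartile factors gave 417 higher and 288 lower, DESeq2 637 and 874, and the replicate block 1397 and 1770. With the replicate block, RLE factors gave 1298 and 1912, upper-quartile factors 2071 and 1380, no filter 1440 and 1783, and DESeq2 809 and 1378; without pair 1, 2 or 3 it gave 984 and 1513, 852 and 1311, or 434 and 594. Leaving out 1 sample gave 2 to 365 higher and 3 to 722 lower: 40 and 49, 35 and 87, or 2 and 3 without diseased replicate 1, 2 or 3, and 365 and 722, 3 and 7, or 14 and 23 without un-diseased replicate 1, 2 or 3. Members called numbered 0 higher and 2 lower with DESeq2, and 0 higher and 0 to 1 lower when 1 sample was left out. With the replicate block they were 2 and 2, 2 and 2 with RLE factors, 3 and 2 with upper-quartile factors (Acp5 added), 3 and 2 with no filter (Tnfrsf11a added), 1 and 2 with DESeq2 (Il34 lost), and 0 and 2, 1 and 2, or 2 and 1 without pair 1, 2 or 3. Pathway genes called numbered 4 and 4 with upper-quartile factors, 1 and 5 with no filter, 10 and 14 with DESeq2, and 0 to 2 and 0 to 8 when 1 sample was left out. With the replicate block they numbered 26 and 36, 26 and 38 with RLE factors, 32 and 31 with upper-quartile factors, 27 and 36 with no filter, 21 and 33 with DESeq2, and 21 and 31, 22 and 33, or 18 and 20 without pair 1, 2 or 3. Mmp14, at -0.01, changed sign with upper-quartile factors (0.071, and 0.064 with the block), without diseased replicate 1 (0.10) or 3 (0.045) or un-diseased replicate 2 (0.017) or 3 (0.099), in a range of -0.21 to 0.10 when 1 sample was left out, and with the block without pair 3 (0.13). The cause of these shifts was not tested. For the ratios the exact test of the 3 differences within pairs (the replicate block) gave p = 0.5 for Tnfsf11 over Tnfrsf11b at 1.10 and p = 0.25, its smallest possible, for Csf1 over Il34 at -1.73. The p for Csf1 over Il34 was fixed beforehand, since Csf1 was lower and Il34 higher within every pair. With 3 samples a group and counts of 26 or fewer, differences in Tnfrsf11a and Oscar are measured least precisely.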
